A study of Sus scrofa with 35 samples.

Results

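The mitochondrial ribosomal proteins were followed in whole blood of 35 pigs as the probes of a porcine array whose gene symbol begins with MRPL or MRPS followed by a digit. The array held 83 such probes for 58 gene symbols among 60305 probes. A log2 value was given for 76 of the 83 probes, which stand for 56 genes, and for 39072 probes in all. The other 7 probes, for MRPL4, MRPL35, MRPL39, MRPL47, MRPS9, MRPS14 and MRPS35, were well above background on 0 to 7 of the 35 arrays, and MRPL39 and MRPS35 had no further probe. The rule reads gene symbols and no measured value.

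Each array carried the blood RNA of 1 castrated male growing pig. The pigs were Creole (CR), Large White (LW) or F1 animals of the cross between both breeds, and their housing was either thermoneutral (TN, 24 °C) or hot (heat stress, HS, lasting 5 d in the labels and 4 or 5 d in the methods). The temperature of HS is 30 °C in the labels and 32 °C in the text of the protocol. Each of the 6 groups had 6 pigs, except CR in TN conditions with 5. Slaughter of the TN pigs preceded the warming of the rooms, so the day of slaughter and the climate cannot be told apart. Whole blood mixes the RNA of immature red cells, platelets and white cells, and in such a bulk sample fewer cells of a type and less RNA per cell cannot be told apart.

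Mitochondria keep a small genome that encodes core subunits of the respiratory chain, and they translate its messengers on ribosomes of their own. The proteins of these ribosomes are encoded in the nucleus, made in the cytosol and imported. Some descend from bacterial ribosomal proteins, others were added in the course of evolution and have no bacterial counterpart. The small subunit binds the messenger and decodes it, and the large subunit joins the amino acids and releases the new chain towards the inner membrane. Mature red cells have lost their mitochondria, whereas white cells, platelets and immature red cells still hold them.

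The probe sequences are given first for the members on which the results below turn, 5′ to 3′ as the scanner files print them. The first 4 lines are the probes of the genes with the largest rise under HS, the fifth is the MRPL24 probe with the smallest p of its gene, and the next are probes of MRPL22 and MRPL14 that fell. For MRPL40, whose probes moved in opposite directions, only the first 30 bases of each are shown. The last pair belongs to MRPL52 and shows bases 26 to 54 of probes that differ at 1 base of 60, A40T counted from the 5′ end of the probe, with the differing base in capitals.
MRPS9, probe A_72_P037736: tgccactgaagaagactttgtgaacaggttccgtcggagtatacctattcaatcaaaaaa
MRPS25, probe O12266: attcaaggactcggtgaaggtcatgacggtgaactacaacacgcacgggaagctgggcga
MRPS2, probe O6203: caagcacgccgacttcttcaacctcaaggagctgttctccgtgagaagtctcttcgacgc
MRPL28, probe O13220: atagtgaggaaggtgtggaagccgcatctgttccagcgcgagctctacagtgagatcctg
MRPL24, probe A_72_P607258: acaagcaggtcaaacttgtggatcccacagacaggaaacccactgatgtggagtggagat
MRPL22, probe O10757: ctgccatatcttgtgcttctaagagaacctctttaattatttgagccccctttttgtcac
MRPL14, probe O14234: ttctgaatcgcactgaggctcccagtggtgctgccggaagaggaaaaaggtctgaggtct
MRPL40, probe O12799: atgtaccaggacatcaccaaggtgtacaca
MRPL40, probe A_72_P153326: atattaatcctcctttgaaacacgatactc
MRPL52, probe A_72_P478148: gacccaagccttttAacagcccatataca
MRPL52, probe O1715: gacccaagccttttTacagcccatataca

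The files do not give the strand of a probe relative to its transcript, and the probes were not set against transcripts here. As printed, the MRPL22 probe has a stop codon in all of its reading frames, whereas its complement has 1 open frame. The MRPL14 probe O14234 has 1 open frame as printed and 3 in the complement. Such counts are a weak description in 60 bases: 4 of the 34 probes that rose also had no open frame as printed.

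On these arrays, 55.2% to 68.0% of all probes were well above background. Values are quantile normalized log2 intensities, so that a difference of 1 is a doubling, and they were not compared between probes of different sequence. Of the 76 probes with a log2 value, 74 were well above background on all 35 arrays, with the MRPL1 probe on 34 and the MRPL13 probe on 25. The spread between pigs of 1 group had a median SD of 0.238 over the member probes and of 0.268 over all probes.

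Under HS, transcripts of the mitochondrial ribosome were on balance higher in blood. In a model with breed and climate as additive terms (35 pigs), 34 of the 76 member probes rose and 3 fell past an adjusted p of 0.05 (limma, Benjamini-Hochberg over all 39072 probes). The share of members called was 48.7%, against 34.8% of all probes, of which 20.1% rose and 14.7% fell. The median log2 change was 0.18 over the members and 0.06 over all probes, and 64 of the 76 member probes had a positive change. The members were brighter than all probes (median log2 level 8.80 against 7.12), which limits this comparison. Among the 29552 probes well above background on all arrays, 40.3% were called, with a median change of 0.08. In that set 35 of 74 member probes rose and 3 fell, with a median of 0.19. The largest of the 34 rises was 0.42 on the log2 scale, or 1.34-fold. These calls were not kept without the F1 pigs, a fit with fewer pigs: limma then called 0 members and 0 of all probes. In that fit 18 members and 6845 of 39072 probes passed at an unadjusted p under 0.05. The members' median was 0.10 against 0.02 over all probes.

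By gene, 26 of the 56 members rose in at least 1 probe with all probes of the gene of 1 sign, 1 fell, 2 were called with probes of opposite sign (mixed) and 27 were not called. Over all 25583 named genes the same rule gave 20% up, 15% down and 3.54% mixed. In the large subunit 18 of 37 genes rose, with 11 of the 23 that have a bacterial counterpart and 7 of the 14 that are specific to mitochondria. In the small subunit 8 of 18 genes rose, with 5 of 13 and 3 of 5 in the same order. The median change over probes was 0.19 in the large subunit (53 probes) and 0.13 in the small subunit (22 probes), with 52.8% and 40.9% of these probes called against 34.8% of all probes. MRPS36, which carries a symbol of the family but is a subunit of the oxoglutarate dehydrogenase complex, had a change of 0.16 ± 0.07 (SE) that did not pass (adjusted p = 0.0626).

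**Figure D1:**
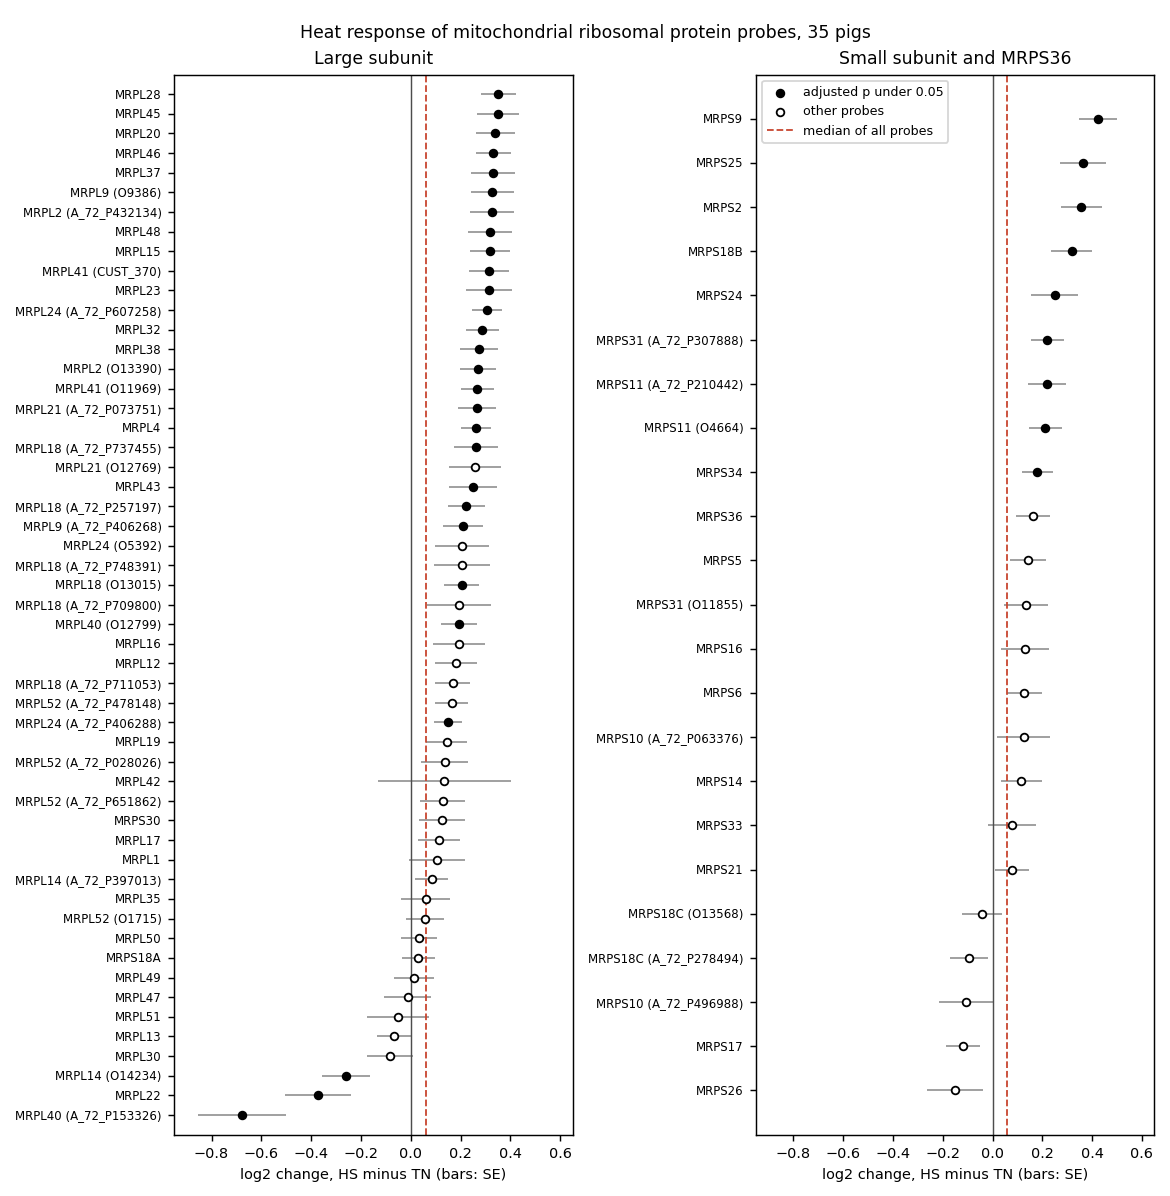
Log2 change of HS minus TN (x axis, bars are SE) for each of the 76 member probes (y axis), with the large subunit on the left and the small subunit with MRPS36 on the right. Filled points have an adjusted p under 0.05 and the dashed line is the median of all 39072 probes (0.06). The 34 filled points of rising probes lie between 0.15 and 0.42, and 3 lie below 0.

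Among the small subunit proteins with a bacterial counterpart, MRPS9 had the largest rise. In TN pigs its values were 7.38, 7.43, 7.45, 7.69 and 7.73 in CR, 7.11 to 7.86 in F1 (median 7.51) and 7.41 to 7.86 in LW (median 7.53). In HS pigs they were 7.40 to 8.19 in CR (median 7.87), 7.59 to 8.35 in F1 (median 8.02) and 7.87 to 8.28 in LW (median 8.01). Each LW pig under HS lay above every LW pig in TN conditions, while the groups of CR and F1 overlapped. The LW groups all but met, with the lowest HS pig at 7.865 and the highest TN pig at 7.8641. The change was 0.42 ± 0.08 on the log2 scale, 1.34-fold (adjusted p = 0.00159), with 17 of the 18 HS pigs above the TN mean of their breed.

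MRPS2, another protein of the small subunit with a bacterial counterpart, rose by 0.36 ± 0.08 (adjusted p = 0.00249). MRPS18B, 1 of the 3 mammalian versions of bacterial S18, rose by 0.32 ± 0.08 (adjusted p = 0.00476), with 17 of 18 HS pigs above the TN mean of their breed. The other versions did not pass: MRPS18A, which sits in the large subunit, had a change of 0.03 ± 0.07 (adjusted p = 0.745), and the MRPS18C probes had -0.09 ± 0.07 (adjusted p = 0.327) and -0.04 ± 0.08 (adjusted p = 0.707). MRPS16, in which inherited defects impair mitochondrial translation in people, had 0.13 ± 0.10 (adjusted p = 0.298). MRPS25, which has no bacterial counterpart, rose by 0.36 ± 0.09 (adjusted p = 0.00395), with 15 of 18 HS pigs above the TN mean of their breed. MRPS12, MRPS22 and MRPL44 have no probe under these symbols.

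In the large subunit, MRPL28 had the largest rise. Its TN values were 8.52, 8.54, 8.55, 8.65 and 8.91 in CR, 8.28 to 8.99 in F1 (median 8.73) and 8.43 to 8.80 in LW (median 8.67). Its HS values were 8.47 to 9.18 in CR (median 9.04), 8.85 to 9.22 in F1 (median 9.04) and 8.85 to 9.25 in LW (median 8.97). As for MRPS9, the LW groups did not overlap and the others did. The change was 0.35 ± 0.07 (adjusted p = 0.00159) and 17 of 18 HS pigs lay above the TN mean of their breed.

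MRPL20, whose bacterial counterpart is needed early in the assembly of the large subunit, rose by 0.34 ± 0.08 (adjusted p = 0.00271). MRPL9 rose with both of its probes, by 0.33 ± 0.09 (adjusted p = 0.0051) and 0.21 ± 0.08 (adjusted p = 0.0418), the second call being lost on leaving out any of 15 single pigs. MRPL12, the stalk protein that recruits translation factors, had 0.18 ± 0.08 and did not pass (adjusted p = 0.0849). It passed with scaling on the 75th percentile of the array, with array weights, without CR HS replicate 1 (adjusted p = 0.0267) and without CR HS replicate 6.

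The mitochondria-specific proteins of the large subunit that rose most were MRPL45, which ties the ribosome to the inner membrane, MRPL46 and MRPL48, which lie in its central protuberance, and MRPL37. MRPL45 rose by 0.35 ± 0.08 (adjusted p = 0.00281), MRPL37 by 0.33 ± 0.09 (adjusted p = 0.0059) and MRPL48 by 0.32 ± 0.09 (adjusted p = 0.00713). For MRPL46 the TN values were 8.92, 8.93, 9.01, 9.32 and 9.35 in CR, 8.77 to 9.14 in F1 (median 8.84) and 8.93 to 9.22 in LW (median 9.15). The HS values were 8.90 to 9.60 in CR (median 9.30), 9.37 to 9.54 in F1 (median 9.47) and 8.96 to 9.53 in LW (median 9.36). The F1 groups stood apart with a gap between them, and the 6 F1 pigs under HS lay close together (SD 0.062). The pooled change was 0.33 ± 0.07 (adjusted p = 0.00165).

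**Figure D2:**
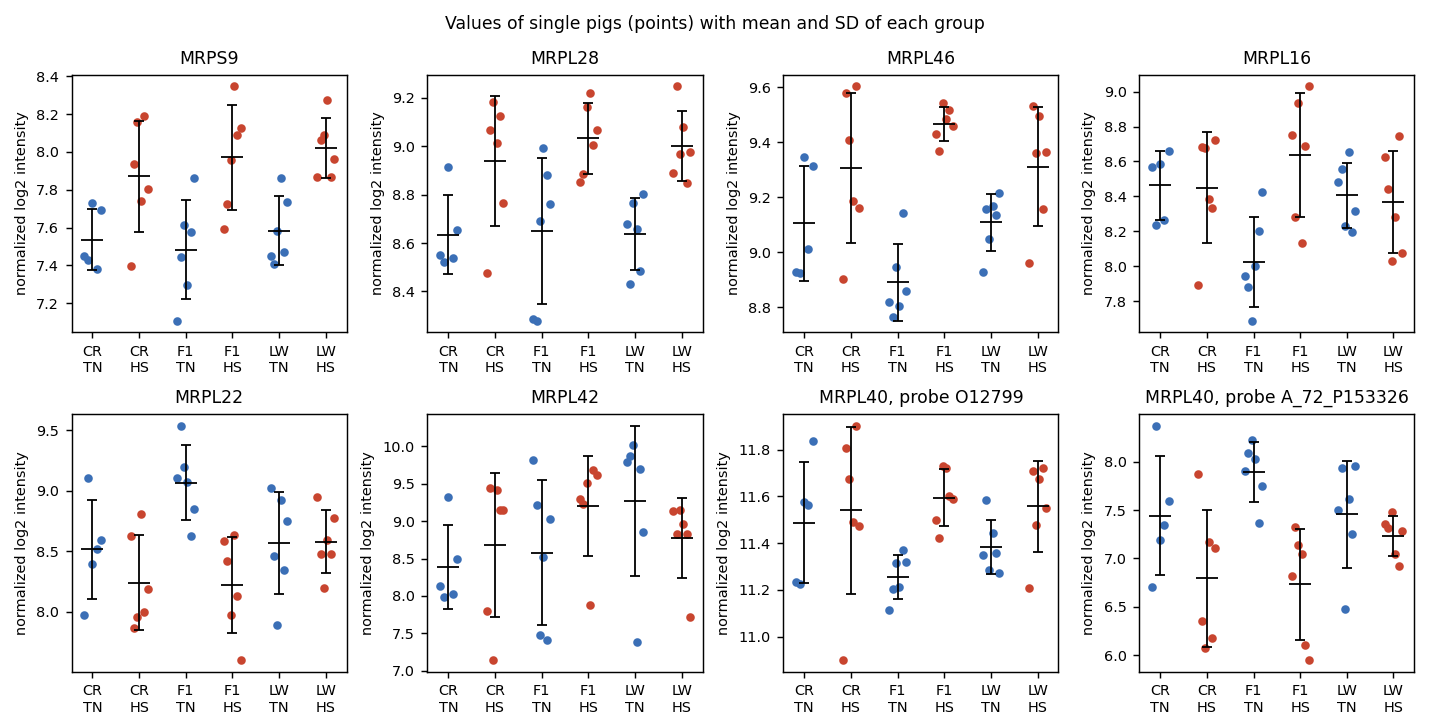
Normalized log2 intensity (y axis) of single pigs (points) in the 6 groups (x axis) for 8 probes of 7 genes, with the mean and SD of each group in black. HS pigs lie mostly above TN pigs for MRPS9, MRPL28 and MRPL46, and below them for the MRPL40 probe A_72_P153326.

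The 3 probes that fell belonged to MRPL22, MRPL40 and MRPL14, all of the large subunit. MRPL22, which lines the exit tunnel, had TN values of 7.97, 8.40, 8.52, 8.59 and 9.10 in CR, 8.63 to 9.54 in F1 (median 9.09) and 7.89 to 9.02 in LW (median 8.61). Its HS values were 7.86 to 8.81 in CR (median 8.09), 7.60 to 8.63 in F1 (median 8.27) and 8.20 to 8.95 in LW (median 8.54). The fall was thus seen in F1 and CR means, and the LW means were alike at 8.57 and 8.58. The change was -0.37 ± 0.13 (adjusted p = 0.0283), and the call was lost without CR TN replicate 2, F1 TN replicate 2 or F1 HS replicate 6 (adjusted p up to 0.0525).

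For MRPL40, a mitochondria-specific protein of the large subunit, the probes passed in opposite directions. Probe A_72_P153326 had TN values of 6.71, 7.19, 7.35, 7.59 and 8.38 in CR, 7.36 to 8.23 in F1 (median 7.97) and 6.47 to 7.95 in LW (median 7.56). Under HS it had 6.08 to 7.87 in CR (median 6.73), 5.95 to 7.33 in F1 (median 6.93) and 6.92 to 7.48 in LW (median 7.30). Every F1 pig under HS was below every F1 pig in TN conditions, the CR and LW groups overlapped, and 2 of 18 HS pigs lay above the TN mean of their breed.

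Its change was -0.68 ± 0.18 (adjusted p = 0.00468), the largest fall of the family. The other MRPL40 probe, O12799, rose by 0.19 ± 0.07 (adjusted p = 0.0398) with 15 of 18 HS pigs above the TN mean, and this call was lost on leaving out any of 16 single pigs. MRPL14, a protein of the interface between the subunits, was also split. Probe O14234 fell by 0.26 on the log2 scale (SE 0.10, adjusted p = 0.0372), a call lost on leaving out any of 13 single pigs, while probe A_72_P397013 had 0.08 ± 0.07 (adjusted p = 0.323). MRPL14 was named after its values were seen, as was MRPL42.

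MRPL42 had the widest spread of all members, with an SD between pigs of 1 group of 0.819 against the median of 0.238. Its values ran from 7.38 to 10.01 in LW TN pigs alone, where 1 pig lay at 7.38 and the other 5 between 8.86 and 10.01. The change of 0.13 ± 0.27 (adjusted p = 0.715) did not pass.

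Several members were measured by more than 1 probe, which shows how far a call depends on the probe. Of the 13 genes with several probes, 10 had all changes of 1 sign, and in 4 every probe rose past the threshold. MRPL18 had 6 probes, all with a change between 0.16 and 0.27, of which 3 passed. Its probes A_72_P257197, A_72_P711053, A_72_P709800 and A_72_P748391 share 38 to 60 bases with one another, so the 6 are not separate stretches of sequence. The MRPL18 probes A_72_P257197 and A_72_P711053 have the same 60 bases, yet 1 passed with 0.22 ± 0.07 (adjusted p = 0.02) and the other did not with 0.17 ± 0.07 (adjusted p = 0.0626). In the same pigs their values differed by a median of 0.21.

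The MRPS18C probes also share all 60 bases and differed by a median of 0.24. For MRPL52, the probes that differ by the single base A40T had changes of 0.16 ± 0.07 (adjusted p = 0.0526) and 0.06 ± 0.08 (adjusted p = 0.575). The MRPL43 probe has the sequence of a probe listed under LOC100152229, with changes of 0.25 ± 0.10 and 0.25 ± 0.08. The MRPL24 probe A_72_P406288 is the exact complement of a probe listed under TC602088. The MRPL24 probe rose by 0.15 ± 0.06 (adjusted p = 0.0357), and the opposite strand probe, well above background on 29 of the 35 arrays, had 0.11 ± 0.05 (adjusted p = 0.0913).

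Within breeds, calls were made in F1 pigs only, from a model of the 6 group means. In F1, 40 member probes rose and 4 fell, which is 57.9% of the members against 38.7% of all probes (20.8% up and 17.9% down). The members' median was 0.35 on the log2 scale against 0.13 over all probes. All F1 calls of members were lost with the mean of an erythroid gene list as a covariate (1.2% of all probes called) and with the brightness of the array as a covariate (0% of all probes called, members' median 0.18), as described further on. In CR pigs limma called 0 members (smallest adjusted p over the members = 0.557) and 0% of all probes. At an unadjusted p under 0.05, 6 of 76 members and 3466 of 39072 probes passed in CR. In LW pigs limma called 0 members (smallest adjusted p over the members = 0.563) and again 0% of all probes. Unadjusted, 14 members and 3404 of all probes passed in LW. With array weights LW had 4 calls among the members, against 2.84% of all probes. The members' medians were 0.10 in CR and 0.12 in LW, against 0.03 and 0.01 over all probes, and 57 and 58 of the 76 changes were positive.

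**Figure D3:**
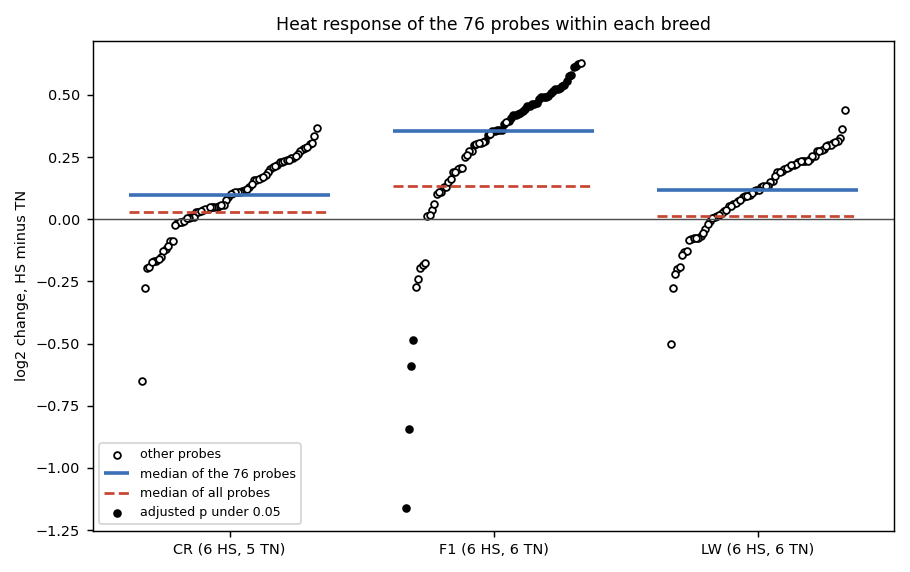
Log2 change of HS minus TN (y axis) for each of the 76 member probes, ordered by size within each breed (x axis). Solid lines are member medians (0.10 in CR, 0.35 in F1 and 0.12 in LW), dashed lines the medians of all 39072 probes, and filled points, all in F1, have an adjusted p under 0.05.

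Among the probes called in F1, the largest rises belonged to MRPL18, MRPL9 and MRPL16. The MRPL42 change of 0.63 ± 0.45 was not called (adjusted p = 0.261). MRPL18 probe A_72_P709800 rose by 0.62 ± 0.21 (adjusted p = 0.0183) with F1 values of 8.81 to 9.38 in TN (mean 9.02) and 9.46 to 9.99 under HS (mean 9.65). MRPL9 probe O9386 rose by 0.62 ± 0.14 (adjusted p = 0.00113), from 8.65 to 9.18 (median 8.81) to 9.29 to 9.75 (median 9.43). For these probes the F1 groups did not overlap.

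MRPL16, which lies close to the site of peptide bond formation, rose by 0.61 ± 0.16 (adjusted p = 0.00373), from 7.69 to 8.43 (median 7.97) to 8.13 to 9.03 (median 8.72), with overlap. The smallest adjusted p in F1 was that of MRPL46 (0.000332, change 0.58 ± 0.11). The largest F1 falls were those of MRPL40 probe A_72_P153326 (-1.16 ± 0.29, adjusted p = 0.00259), MRPL22 (-0.84 ± 0.21, adjusted p = 0.00241) and MRPL14 probe O14234 (-0.59 ± 0.15, adjusted p = 0.00383). The fourth F1 fall was that of MRPS26, a mitochondria-specific protein of the small subunit (-0.49 ± 0.19, adjusted p = 0.0379).

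Counted by overlap, 16 member probes in F1 had every HS pig above every TN pig, against 3.59% of all probes, and 2 had every HS pig below, against 8.08% of all probes. In LW these were 3 above (MRPS9, MRPL28 and MRPL41 probe O11969), against 0.683% of all probes, and 0 below against 0.0973%. In CR they were 0 above, against 0.417%, and 0 below against 0.0435%. The 16 probes in F1 stood for 13 genes, among them MRPL2, which lies at the peptidyl transferase centre, MRPL4, MRPL15, MRPL24, MRPL37, MRPL38, MRPL46, MRPL48 and MRPS31.

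Whether the breeds differed in their response was tested directly, and no member passed. The interaction of breed and climate called 0 members and 0% of all probes (limma, smallest adjusted p over the members = 0.278). At an unadjusted p under 0.05, 14 of 76 members and 5807 of 39072 probes passed. The difference of responses had a member median of 0.23 for F1 minus CR and 0.20 for F1 minus LW, against 0.06 and 0.07 over all probes. Unadjusted, 14 and 17 members had a p under 0.05, next to 4629 and 8874 of all 39072 probes. For LW minus CR the member median was 0.04, and 2 members and 700 of all probes passed unadjusted. None of these pairwise differences was called after adjustment, with 0% of all probes called in each, although with array weights 6 of 76 members were called for F1 minus LW, against 9.99% of all probes.

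The smallest interaction p-values belonged to MRPL16, MRPL9 and MRPL21. MRPL16 changed by 0.61 in F1, -0.01 in CR and -0.04 in LW (unadjusted p = 0.00964). In TN conditions its F1 values (median 7.97) lay below most of those in CR (8.24 to 8.66) and LW (8.19 to 8.65), and under HS the 3 breeds overlapped. MRPL9 probe A_72_P406268 changed by 0.53 in F1, 0.05 in CR and 0.03 in LW (unadjusted p = 0.0103). MRPL21 probe A_72_P073751 changed by 0.53 in F1, -0.01 in CR and 0.26 in LW (unadjusted p = 0.0127).

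Between breeds, with climate as a term of the model, no member differed past the threshold (limma). For CR minus LW 0 members were called against 1.08% of all probes, and array weights gave 5 calls against 3.9% of all probes. At an unadjusted p under 0.05, 6 of 76 members and 3950 of 39072 probes passed. For F1 minus CR 0 members were called against 0.184% of all probes (unadjusted 0 members and 1933 of all probes). For F1 minus LW it was 0 against 0.0256% (unadjusted 2 and 1751). F1 minus the mean of CR and LW gave 0 against 0.0717% (unadjusted 2 and 1167). The member with the smallest p for CR minus LW was MRPS6, named after its values were seen, with a difference of 0.24 ± 0.09 (adjusted p = 0.222). Its TN values were 9.84, 9.96, 10.01, 10.03 and 10.21 in CR and 9.48 to 9.89 in LW (median 9.76), so these groups met at their edges. Under HS they overlapped widely, with 9.46 to 10.29 in CR and 9.55 to 10.02 in LW.

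Other gene groups of mitochondrial translation were described from lists of genes. Of 5 measured ribosomal proteins without an MRP symbol, 2 rose and CHCHD1 had probes of opposite sign, with 37.5% of the probes called against 34.8% of all probes. ICT1, a peptide releasing protein built into the large subunit, rose by 0.34 ± 0.07 (adjusted p = 0.00159) and PTCD3, of the small subunit, by 0.24 ± 0.07 (adjusted p = 0.00672). CHCHD1, also of the small subunit, fell with probe A_72_P711633 by 0.34 on the log2 scale (SE 0.11, adjusted p = 0.0159), while its other probes had positive changes of 0.20 and 0.12 that did not pass.

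Of 13 measured translation factors, 5 rose, 1 fell and 1 was mixed, with 36.4% of the probes called against 34.8% of all probes. TUFM, the mitochondrial elongation factor Tu, rose by 0.31 ± 0.06 (adjusted p = 0.00159), LETM1, an inner membrane protein that associates with the ribosome, by 0.43 ± 0.10 (adjusted p = 0.00204) and MTIF3, an initiation factor, by 0.29 ± 0.09 (adjusted p = 0.0142). Of 15 measured assembly factors, 6 rose, 3 fell and 2 were mixed, with 60.9% of the probes called. MRM1, which methylates ribosomal RNA, rose by 0.40 ± 0.09 (adjusted p = 0.00228) and RPUSD4, which modifies it to pseudouridine, by 0.32 ± 0.08 (adjusted p = 0.00275). MTERFD1, a factor of ribosome assembly and transcription in mitochondria, was split, with -0.36 ± 0.07 (adjusted p = 0.00159) and 0.22 ± 0.07 (adjusted p = 0.0172). Its other probes, with 0.08 (adjusted p = 0.615) and 0.05 (adjusted p = 0.771), did not pass.

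Of 8 measured genes of mitochondrial transcription and RNA stability, 1 rose and 1 was mixed, with 26.3% of the probes called against 34.8% of all probes. SUPV3L1, a helicase of RNA decay, rose by 0.19 ± 0.07 (adjusted p = 0.0382) on 1 probe. Its other probes had 0.16 (adjusted p = 0.0676) and 0.05 (adjusted p = 0.52). POLG, the mitochondrial DNA polymerase, was mixed, with 3 of its probes up and 1 down. The list medians over probes were 0.15 for the ribosomal proteins without an MRP symbol, 0.10 for the translation factors, 0.15 for the assembly factors and 0.02 for transcription and RNA stability, against 0.18 for the members and 0.06 for all probes.

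Related families on the same arrays had smaller medians. Cytosolic ribosomal proteins, which build the ribosomes of the cytosol, had 66 of 279 probes up, 7 down and a median of 0.08. Nuclear encoded subunits of respiratory complex I, a complex that also holds subunits made inside mitochondria, had 16 of 61 probes up, 2 down and a median of 0.08. The shares called were 26.2% and 29.5%, against 48.7% of the members and 34.8% of all probes. In F1 pigs the medians were 0.11 and 0.19, against 0.35 for the members. The families lay at different median log2 levels, 13.78 and 10.42 against 8.80 for the members, which limits the comparison. The difference between families was not tested.

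Other measures moved with the members. In the erythroid list 11 of 17 measured genes fell under HS (15% of all named genes by the same rule), 1 was mixed and the median probe change was -0.74, -1.26 in F1. The mean log2 level of the list ranged over 9.95 to 11.84 in F1 TN pigs and 8.57 to 10.21 in F1 HS pigs, over 9.52 to 10.87 and 9.04 to 10.62 in CR, and over 10.06 to 10.85 and 9.61 to 10.52 in LW. Its defining markers were far above background, with HBB, a haemoglobin chain, at 16.70 to 17.83 on all 35 arrays. HBB itself was not among the genes that fell (-0.13 ± 0.09, limma, adjusted p = 0.243). The AHSP probes did not pass either, with -0.08 (adjusted p = 0.688) and -0.05 (adjusted p = 0.793). The SLC4A1 probe O801 rose by 0.27 ± 0.10 (adjusted p = 0.0386). With the list mean as a covariate limma called 0 members and 1 of all 39072 probes. At an unadjusted p under 0.05, 23 members and 6466 of all probes passed. The members' median change was 0.11 against 0.01 over all probes.

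In the other cell type lists, 6 of 11 T cell genes, 2 of 5 B cell genes and 2 of 6 monocyte genes rose. In the neutrophil and cytotoxic cell lists 1 of 8 genes each fell, and 0 of 6 platelet genes were called. Over all named genes the same rule gave 20% up and 15% down. The T cell list mean ranged over 8.34 to 8.67 in F1 TN pigs and 8.52 to 9.08 in F1 HS pigs, and likewise overlapped between climates in CR (8.19 to 8.80 and 8.12 to 9.08) and LW (8.55 to 9.19 and 8.72 to 9.01). The part of these cell types in the members' change was not tested.

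Array brightness also differed, with a 75th percentile of the processed intensity of 149.9 ± 28.3 (SD, n = 6) in F1 TN pigs against 237.9 ± 35.6 in F1 HS pigs and 202 to 228 in the group means of CR and LW. With its log2 as a covariate, an alternative added after the data were seen, 22 members rose and 1 fell in the pooled comparison, with 17.2% of all probes called. In F1 0 members and 0% of all probes were called, and the members' median was 0.18. The arrays lay on 5 slides. On slides 1 to 4, which held both climates in all 3 breeds, the members' median change within the slide, with breed as a term, was 0.05, 0.20, 0.30 and 0.17, against 0.01 to 0.08 over all probes. On slide 5 no breed had both climates, so breed and climate cannot be told apart there. With the slide as a block 35 members rose and 3 fell, and 36.9% of all probes were called.

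**Figure D4:**
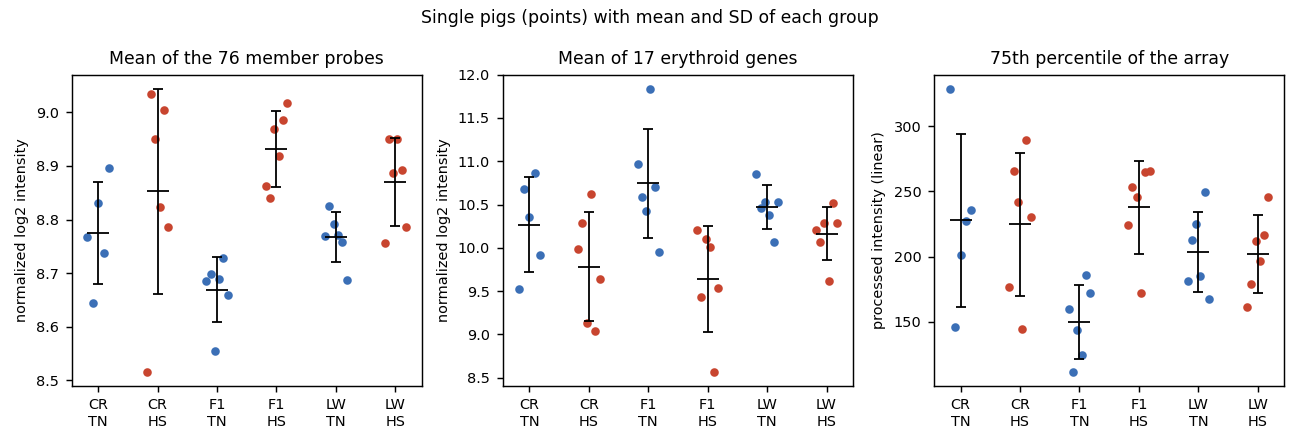
Single pigs (points) with the mean and SD of each group for the mean log2 intensity of the 76 member probes (left), the mean log2 intensity of 17 erythroid genes (middle) and the 75th percentile of the processed intensity on a linear scale (right). F1 TN pigs have the lowest group mean for the members (8.67) and for the 75th percentile (149.9), and the highest for the erythroid genes (10.74).

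Averaged over the 76 probes, the level of a pig ranged over 8.55 to 8.73 in F1 TN pigs and 8.84 to 9.02 in F1 HS pigs, which did not overlap. It ranged over 8.64 to 8.90 and 8.52 to 9.03 in CR, and over 8.69 to 8.83 and 8.76 to 8.95 in LW. The lowest pig of all was CR HS replicate 1 at 8.52. Deviations of the member genes from their group means, taken with the probe of smallest p for each of the 56 genes, had a median pairwise correlation of 0.20 over the 35 pigs (range -0.81 to 0.87). This is a description of probes that share arrays and blood composition.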

How the data were processed

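Whole blood RNA of 35 pigs was hybridised to one-colour Agilent arrays, 1 array a pig. Per the file headers, spots were read with Feature Extraction 10.10.1.1, and the deposited scanner files hold median, background and processed intensity. The authors deposited log2 values of the median intensity, quantile normalized between arrays and filtered for expressed probes by a rule not given in the sources used here. These log2 values were the main measure (39072 probes), and median intensities quantile normalized here correlated with them at r = 0.999971. The scanner intensities and flags served for background and alternatives.

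Probes were fitted with limma 3.58.1 in R 4.3.3, two-sided, threshold 0.05 after Benjamini-Hochberg adjustment over all probes. Climate and breed contrasts came from an additive model, within-breed changes and interaction from 6 group means. Errors after ± are SE unless given as SD. Per the methods, pigs shared pens and litters, and the authors fitted pen, day of slaughter, sire and dam as random effects. These carry no labels and could not be fitted, so p-values measure the spread between pigs treated as independent. They take no account of shared pens or litters. With their model the authors reported far fewer changed blood probes than the 13601 called here. Groups came from the sample labels, and replicate numbers follow record order and pair no pigs. The number of arrays limits precision.

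Members, lists and tests were chosen with earlier results of these data known. Named for HS minus TN were the 10 genes with the largest rise and falls with all probes of 1 sign, by the probe of smallest p, within a breed the 3 largest each way, for the interaction the 3 of smallest p, for each list up to 3 genes, and MRPS18A, MRPS18B, MRPS18C, MRPL12, MRPS12, MRPS16, MRPS22, MRPL44 and genes with opposite calls. Of the 58 symbols, 57 matched a RefSeq gene table, which gave no coordinates as the files name no build. The script was tested on simulated data.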

Additional observations from a re-analysis of the deposited data

Results flagged for a closer look

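Pigs far from the others of their group were looked for in 156 groups of values (26 named probes in 6 groups), and 11 were found. Chance flags about 1 group in 20. In CR HS pigs, replicate 1 lay below the other 5 at 7.711 for MRPL20 (others 8.331 to 8.69), 7.55 for MRPL18 probe A_72_P709800 (others 9.071 to 9.656) and 8.674 for MRPS16 (others 9.211 to 9.466). In CR TN pigs, replicate 2 was low at 7.551 for MRPL45 and at 6.367 for MRPS18B, and replicate 4 was low at 8.788 for MRPL21. MRPS2 was low at 6.101 in F1 HS replicate 1 and at 5.612 in LW TN replicate 1. MRPS18A was high at 9.791 in F1 HS replicate 4. The MRPL42 probe was low at 7.881 in F1 HS replicate 4 (others 9.229 to 9.686) and at 7.714 in LW HS replicate 6 (others 8.828 to 9.151). Without CR HS replicate 1, 42 members rose and 3 fell under HS, and 42% of all probes were called against 34.8% with it.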

How the results depend on the processing

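Under HS, members called up numbered 34 and down 3, with 34.8% of all probes called. Like counts came from other settings, given here with the share of all probes called. Median intensity normalized here gave 34 and 3 (33.4%), scaling on the 75th percentile 37 and 3 (35.9%) and normexp background correction 35 and 3 (35.1%). No filter gave 30 and 2 (21.2%), a stricter filter 35 and 3 (40.3%), slide as a block 35 and 3 (36.9%) and array weights 40 and 4 (43.8%). Gene means gave 26 and 2 of 56 genes, with 35.2% of all genes called. The erythroid mean as a covariate left 0 up and 0 down, with 1 of all probes called. In F1 it left 0 members called, with 1.2% of all probes called. Without F1 pigs there were 0 up and 0 down, with 0 of all probes called. The 75th percentile of the array as a covariate gave 22 up and 1 down, with 6706 of all probes called against 13601. In F1 it left 0 members and 0% of all probes called, with a members' median of 0.18 (from 0.35). Array weights raised calls from 0 to 4 within LW (2.84% of all probes), to 6 for the response of F1 minus LW (9.99%) and to 5 for CR minus LW (3.9%). Leaving out each pig gave 29 to 42 up and 1 to 4 down (1 without CR TN replicate 2 or F1 HS replicate 6), with 29.7% to 42% of all probes called. In these refits 36 to 46 members were called in F1, and 0 to 1 for CR minus LW (1 without CR HS replicate 4). The shares of all probes called in these refits are not given here. With all 35 pigs, 44 members and 38.7% of all probes were called in F1, and 0 members and 1.08% for CR minus LW. No call among the 26 named probes turned to the other direction under these alternatives. Of the 910 refits of named probes that left out 1 pig, 47 lost and 3 gained a call, and the losses were those of MRPL22, MRPL14, MRPL40 and MRPL9 given above. The cause of these differences was not tested. Among the 76 member probes with a log2 value, dim signal limits only MRPL1 and MRPL13. Dim probes without a log2 value left MRPL39 and MRPS35 unmeasured. No paired analysis was possible because replicate numbers follow the record order and pair no pigs.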

Other observations

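A further 14 probes are described in the files as mitochondrial ribosomal proteins but carry another name, and 9 of them had a log2 value. Of these, 2 rose and 2 fell under HS (limma, adjusted p under 0.05). A probe listed under LOC396626 and described as L32 rose by 0.35 ± 0.07 (adjusted p = 0.00159), next to 0.29 ± 0.07 for the MRPL32 probe. A probe listed under TC552040 and described as L20 rose by 0.26 ± 0.08 (adjusted p = 0.0116). A probe listed under LOC100516466 and described as S16 had -0.55 ± 0.15 (adjusted p = 0.00738), whereas the MRPS16 probe had 0.13 ± 0.10. A probe listed under TC602088 and described as L24 had -0.87 ± 0.24 (adjusted p = 0.00629), whereas the 3 MRPL24 probes had changes between 0.15 and 0.31.

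Probes of 1 gene that passed in opposite directions were also met among the assembly factors. RBFA, which matures the small subunit and was named after its values were seen, had -0.63 ± 0.16 (adjusted p = 0.00484) on probe A_72_P495933 and 0.23 ± 0.07 (adjusted p = 0.0112) on probe A_72_P010751. In F1 these were -1.17 (adjusted p = 0.000936) and 0.49 (adjusted p = 0.000881).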
